A study of Homo sapiens with 4 samples.

Results

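Distal 14q32 is the last part of the long arm of human chromosome 14. It holds the imprinted DLK1-MEG3 domain, a gene-dense stretch, and at its end the immunoglobulin heavy chain locus. Here it is described by the regions of an ATAC-seq peak list whose summit, the local maximum of a peak, lay on chromosome 14 from 100 Mb (hg19) to the end of the chromosome. By this rule 2715 of 197823 listed regions, with 6954 of 371521 summits, were members. The segment was chosen by the density of summits in this same list, so its density and the values of its summits are given as a description, with no test.

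ATAC-seq marks accessible DNA by letting the transposase Tn5 insert sequencing adapters into it. The samples were T47D-MTVL cells, luminal breast cancer cells of the T47D line that carry an integrated luciferase reporter driven by MMTV sequences. The cells expressed an shRNA against several variants of linker histone H1 (multiH1sh, the knock-down, 2 samples) or a random shRNA (RDsh, the control, 2 samples), and all 4 samples share the line, its reporter and an expressed shRNA. Histone H1 sits on the nucleosome where DNA enters and exits and is known for its part in chromatin compaction. The study asked what depleting it did to accessibility. For these samples 1 list of peaks was used. By its deposited name this list is of multiH1sh, differential to RDsh, and its track name has 225sh in place of multiH1sh. How the control entered is not given in the sources used here. By its name the list may hold sites of more signal in knock-down than in control cells, and not every accessible site. A stretch without a region may be accessible in both. A fold below is the value as listed. In the segment, folds and p-values rested on a background of 2.01 reads, the same at every summit. They hold no term for control reads at a position, and whether the control served to select regions was not tested. The list gives no separate values for the samples, so the error between replicates is unknown throughout, and no comparison of knock-down with control samples was made. The labels do not say whether the samples of a group are separate cultures. The depletion of H1, the identity of the cells and the fit of the loci's names to their bounds were not checked here, since no annotation of hg19 was used.

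The DLK1-MEG3 domain is a cluster of imprinted genes. DLK1, which encodes a Notch-related transmembrane protein, and RTL1, a gene derived from a retrotransposon, are expressed from the paternal copy. The long non-coding RNAs MEG3, MEG8 and MEG9 and the small RNAs that lie with them are expressed from the maternal copy. The immunoglobulin heavy locus encodes the heavy chains of antibodies. Its variable (V), diversity (D) and joining (J) segments are recombined in B cells and joined to constant (C) genes, which a breast epithelial line does not use to make antibody. In the gene order of RefSeq (GRCh38.p14, another build than that of the list, so only names and order are taken from it) 107 genes run from DLK1 to MEG9, among them 53 miRNA genes, 46 snoRNA genes and 3 protein-coding genes. Before DLK1 stand YY1, a zinc finger transcription factor, WARS1, which charges the tRNA for tryptophan, and BEGAIN. DLK1 and MEG3 begin the domain, then come RTL1 with the first miRNA genes, MEG8, the snoRNA genes, the larger group of miRNA genes and MEG9. Between MEG9 and the heavy locus follow 153 genes, of which 58 are protein-coding. All 27 genes that were listed for the span stand there. The order there begins with the imprinted DIO3OS and DIO3, the deiodinase that inactivates thyroid hormone. It goes on through DYNC1H1, the heavy chain of cytoplasmic dynein, HSP90AA1, an inducible chaperone, TRAF3, an adaptor of immune signalling, EIF5, a translation factor, and AKT1, a kinase of growth factor signalling, to JAG2, a Notch ligand, and MTA1, a subunit of a chromatin remodelling complex. In the heavy locus 9 C genes come first, 6 J and 27 D segments follow, and 48 V segments lie at the far end, together with 79 V pseudogenes.

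The small RNAs are the most numerous class of genes in the imprinted domain, so mature sequences are shown for the largest group of its miRNAs with a common seed and for 2 of the pairs. For 49 of the 53 miRNA genes the sequence of the precursor hairpin was available here. They gave 92 distinct mature miRNAs with 81 distinct seeds, and 21 of the 92 shared their seed with another one of the domain. Sequences run 5′ to 3′, and capitals mark the seed, bases 2 to 8. No listed region was assigned to any of these genes.
hsa-miR-323b-5p: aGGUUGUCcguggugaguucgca
hsa-miR-410-5p: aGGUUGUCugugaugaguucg
hsa-miR-494-5p: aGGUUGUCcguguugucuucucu
hsa-miR-379-3p: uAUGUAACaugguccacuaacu
hsa-miR-411-3p: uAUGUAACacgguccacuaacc
hsa-miR-154-3p: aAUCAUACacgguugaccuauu
hsa-miR-487a-3p: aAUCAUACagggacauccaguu
The first 3 share GGUUGUC, the largest group with 1 seed in the domain. The others form pairs, miR-379-3p with miR-411-3p and miR-154-3p with miR-487a-3p.

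The fold enrichment, p-value and q-value of each peak are the authors'. Each fold in the segment, taken with its p-value, gave whole reads against a background of 2.01 reads, the same at every summit. A fold is therefore a multiple of this common level, and the number of reads over a summit (its pileup) is an equivalent measure. The fold and p-value of a summit thus follow from its pileup and this level, with no term for control reads there. In the segment pileups ran from 10 reads, the lowest of the whole list, to 113 reads. The last summit outside the segment lay at 99999700 with 15 reads, and the first inside lay at 100000113 with 10 reads. No summit lay beyond 107280943, where the pileup was 16 reads. Library totals were not used here, and all intervals cover counting error only, because PCR copies cannot be told from separate molecules and summits of a region are not independent.

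The segment as a whole was many times denser than the rest of its chromosome. It had 946 summits per Mb, against 60.1 per Mb from the first listed region of chromosome 14 up to 100 Mb, a ratio of 15.8. Over all other parts of the list, between the first and last region of each chromosome, the density was 122 per Mb. Listed regions covered 18.4% of the segment and 1.18% of the rest of chromosome 14. With each region counted once the segment was 8.59 times as dense as the rest of the chromosome, so the excess was smaller in regions than in summits. Before the segment counts varied from Mb to Mb: 80 summits lay from 97 to 98 Mb, 7 from 98 to 99 Mb, 249 from 99 to 100 Mb and 713 in the next 1 Mb.

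Single regions of the segment were also wider and held more summits than those before it. The median width was 259 bp in the segment and 182 bp in the rest of chromosome 14, and the share of regions with 1 summit was 59.4% (95% Wilson interval 57.6 to 61.3%) against 80.1% (78.7 to 81.4%). The whole list lay between them, with a median width of 208 bp and 71.8% of regions with 1 summit. Regions of 2 kb or more numbered 88 of 2715 (3.24%) in the segment and 6 of 3485 (0.172%) in the rest of the chromosome, and they were 1.51% of all listed regions. The share of summits with 20 reads or more was 29.3% in the segment (28.2 to 30.4%), 17.2% in the rest of chromosome 14 (16.1 to 18.3%) and 26.5% in the whole list. Within a region the median distance from summit to summit was 159 bp in the segment and 156 bp elsewhere in the list.

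The 3 named stretches differed in the number and the size of their regions. The DLK1-MEG3 domain (101190001 to 101540000) had 192 summits in 131 regions, the heavy locus (106050001 to 107290000) had 675 in 235, and the span between them had 5025 in 1807. Per Mb these were 549 summits in the domain, 544 in the heavy locus and 1114 in the span. The domain therefore stood at 0.492 of the span's summit density and the heavy locus at 0.489, nearly the same ratio. The number of regions told them apart: the domain had 374 regions per Mb, the heavy locus 189.5 and the span 401, so the domain was at 0.934 of the span and the heavy locus at 0.473. The domain had about as many regions per length as the span but smaller ones, whereas the heavy locus had fewer. Both were covered to about the same extent by listed regions, 10.7% of the domain and 10.7% of the heavy locus, against 21.5% of the span. The stretch before the domain, from 100000001 to 101190000, had 1062 summits or 892 per Mb and was covered to 17.4%.

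**Figure D1:**
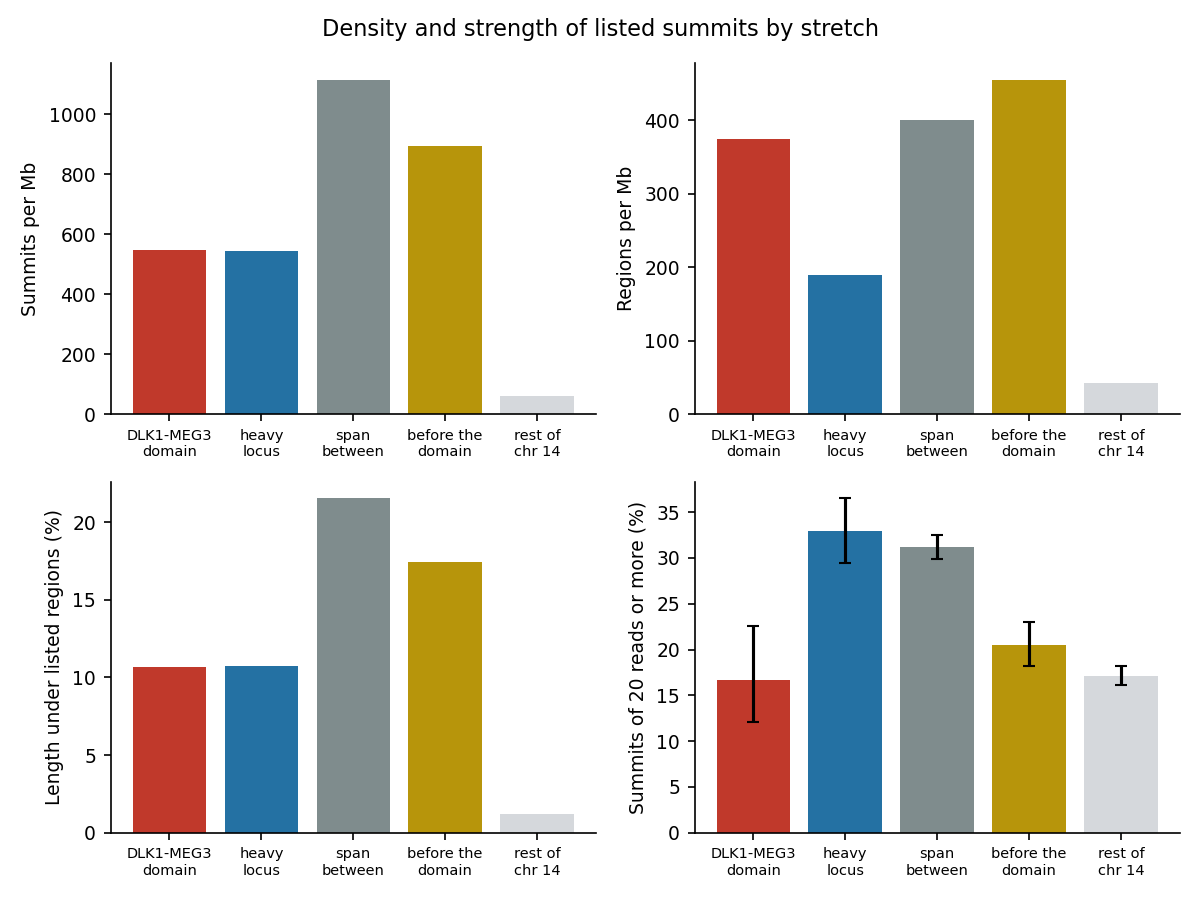
Summits per Mb, regions per Mb, percent of length under listed regions and percent of summits of 20 reads or more, for the DLK1-MEG3 domain, the heavy locus, the span between, the stretch before the domain and the rest of chromosome 14; error bars in the last panel are 95% Wilson intervals (counting error only). The domain and the heavy locus have nearly the same summit density, at 549 and 544 per Mb, but the domain has 374 regions per Mb and the heavy locus 189.5.

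Strength separated the stretches as well. In the domain 16.7% of summits had 20 reads or more (32 of 192, 95% Wilson interval 12.1 to 22.6%), in the heavy locus 32.9% (222 of 675, 29.5 to 36.5%) and in the span 31.2% (1566 of 5025, 29.9 to 32.5%). The interval of the domain lay below both others, and those of the heavy locus and the span overlapped. In the stretch before the domain the share was 20.5% (18.2 to 23.1%), whose interval overlapped that of the domain. The share in the rest of chromosome 14, 17.2%, lay inside the interval of the domain. That of the whole list, 26.5%, lay above it and below the intervals of the heavy locus and the span. The median fold was 5.32 in the domain, 5.98 in the heavy locus and 5.98 in the span. The upper end differed more: the 90th percentile of the fold was 7.98 in the domain, 10.3 in the heavy locus and 8.98 in the span. Summits of 50 reads or more numbered 29 in the heavy locus and 21 in the span, although the span had many more summits in all, and the domain had 0 of 192, which allows a share of up to 1.56%. They were 4.30% of the summits of the heavy locus and 0.418% of those of the span. Over the whole segment the share was 0.733%, in the rest of chromosome 14 0.473% and in the whole list 1.44%. The span thus lay below the list, and the limit for the domain, 1.56%, lay above the share of the list.

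Regions were narrowest in the domain. The median width was 181 bp in the domain, 311 bp in the heavy locus and 268 bp in the span, and the widest region was 1847 bp in the domain, 4575 bp in the heavy locus and 11589 bp in the span. Of the 131 regions of the domain 0 reached 2 kb, which allows a share of up to 2.29%. This limit lay above the share of the whole list, 1.51%, so the 0 does not set the domain apart from the list. In the heavy locus 11 of 235 (4.68%) reached 2 kb and in the span 70 of 1807 (3.87%). In the rest of chromosome 14 the share was 0.172%. Regions with 1 summit made up 76.3% in the domain (68.4 to 82.8%), 53.6% in the heavy locus (47.2 to 59.9%) and 56.9% in the span (54.6 to 59.2%). In the whole list they made up 71.8%, which lies inside the interval of the domain and above the other 2. In the rest of chromosome 14 they made up 80.1%, which also lies inside the interval of the domain. Inside regions the distance between neighbouring summits was similar in all, with medians of 167 bp in the domain, 165 bp in the heavy locus and 160 bp in the span.

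**Figure D2:**
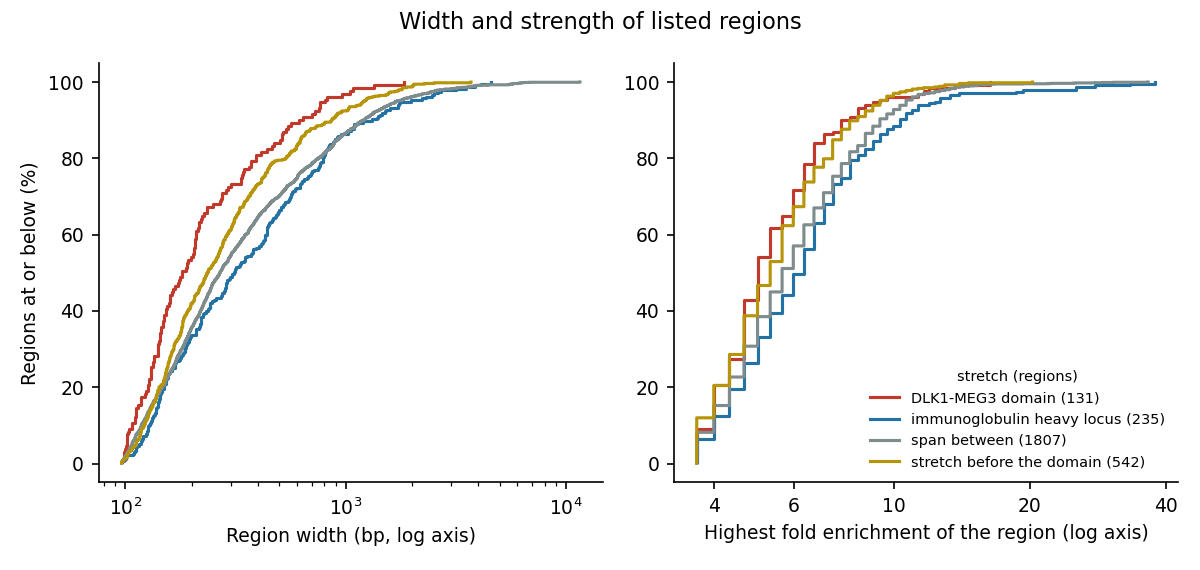
Share of regions (percent, vertical axis) at or below a given width in bp (left, log axis) or a given highest fold enrichment (right, log axis), with 1 line for each stretch and its number of regions in the legend. The line of the DLK1-MEG3 domain lies to the left in widths, with a median of 181 bp and no region beyond 1847 bp, and ends at a fold of 16.3, whereas those of the heavy locus and the span run on to 37.9 and 36.6.

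Within the DLK1-MEG3 domain the summits fell into 2 groups around a long empty stretch. From 101373803 to 101470400, over 96.6 kb, no region was listed, and 9 of the 35 windows of 10 kb were empty, all of them there. Before this stretch 153 summits lay in 184 kb (832 per Mb), and after it 39 summits lay in 69.6 kb (560.3 per Mb). The first group was thus about as dense as the stretch before the domain (892 per Mb). Its summits peaked in 2 adjoining windows, with 23 summits from 101330001 to 101340000 and 22 from 101340001 to 101350000. The median over all 35 windows of the domain, with the empty ones, was 5. Summits of 20 reads or more were 24 of 153 in the first group (15.7%, 95% Wilson interval 10.8 to 22.3%) and 8 of 39 in the second (20.5%, 10.8 to 35.5%), and these intervals overlapped.

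The 3 regions of the domain with the highest folds stood on both sides of the empty stretch. The region from 101338934 to 101339895 (962 bp) held 5 summits with folds of 4.99 to 16.3, the highest at 101339700 with 48 reads and a −log10 p of 48.8. Towards lower positions, beyond 2 further listed regions, the region from 101335647 to 101337493, the widest of the domain at 1847 bp, reached a fold of 11.97 (35 reads). Beyond the empty stretch, the region from 101485950 to 101486990 (1041 bp) held 4 summits that all had 26 reads or more and reached a fold of 13.6 (40 reads). The region from 101509202 to 101510548, the next widest of the domain at 1347 bp, reached 11.3 (33 reads). The region from 101301191 to 101302271 had 5 summits as well, but none above a fold of 8.98. All of these were below the strongest regions of the heavy locus and the span.

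**Figure D3:**
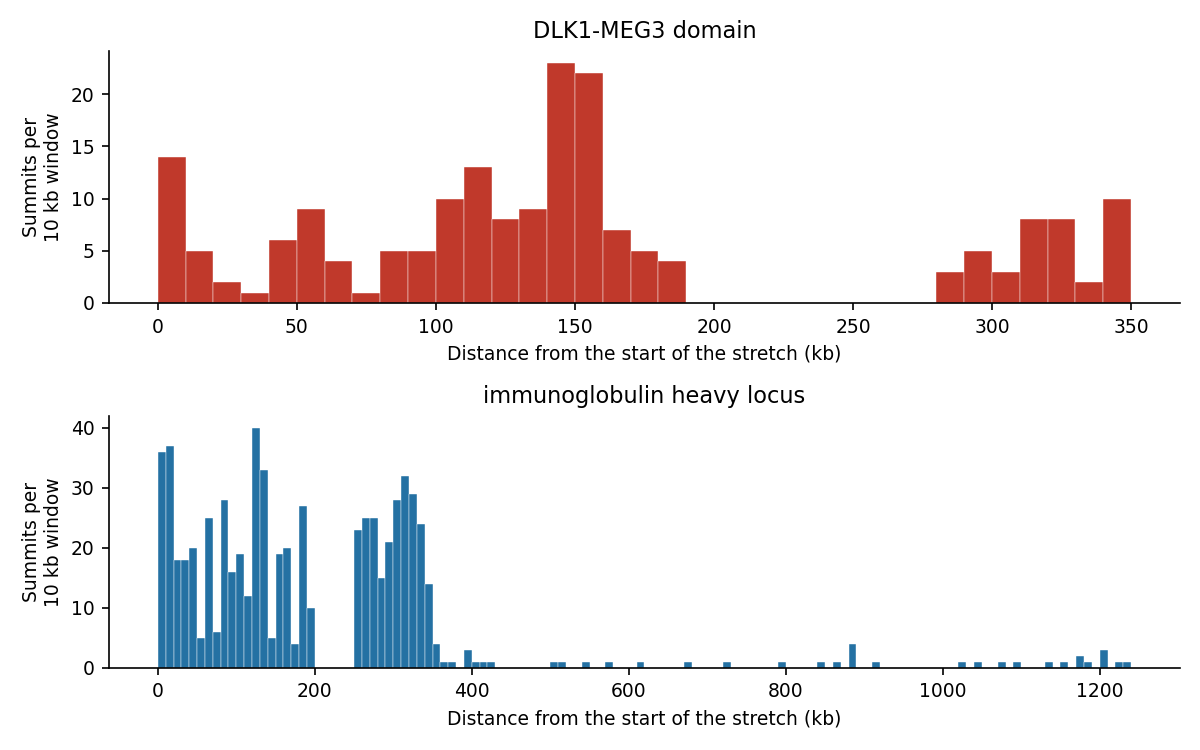
Summits per window of 10 kb (vertical axis) against the distance from the start of the stretch in kb, for the DLK1-MEG3 domain (top) and the immunoglobulin heavy locus (bottom). The domain has an empty middle of 96.6 kb, and in the heavy locus 634 of 675 summits lie in the first 350 kb.

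The heavy locus was divided even more sharply. Its first 350 kb, up to 106400000, held 634 of its 675 summits, and the other 890 kb held 41. This limit was chosen after the values were seen, at the edge of a window of 100 kb where the counts drop. The first part had 1811 summits per Mb and 35.2% of its length in listed regions, and the second had 46.1 per Mb and 1.11%. The density of the first was thus 39.3 times that of the second and 1.63 times that of the span, and the second lay at 0.767 of the rest of chromosome 14. The drop was short: 24 summits lay from 106380001 to 106390000, 14 in the next window of 10 kb and 4 in the one after. Of the 89 windows of 10 kb in the second part 59 were empty and none had more than 4 summits, whereas the median window of the first part had 19.

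The 2 parts of the heavy locus also differed in what their regions looked like. In the first part regions had a median width of 373 bp, 47.8% had 1 summit (41.0 to 54.6%) and 34.2% of summits had 20 reads or more (30.6 to 38.0%). In the second part the median width was 185 bp, 30 of 34 regions had 1 summit, 5 of 41 summits had 20 reads or more (12.2%, 5.32 to 25.5%) and the highest fold was 10.6. The few regions of the second part lay far apart, with a median of 19.7 kb between neighbours against 274 bp in the first part, and the longest distance, from 106967220 to 107074773, was 107.6 kb. The first part was not filled throughout, since 53.6 kb from 106249661 to 106303253 held no region. In the order of RefSeq genes C genes stand at the end of the locus next to the span and V segments at the far end, but without an annotation of hg19 neither part was assigned to a class of segments. Some C genes and V segments are close copies of one another, and how reads with several placements were treated is not given in the sources used here, so counts over such copies are uncertain, and the part of this in the drop was not tested.

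The strongest region of the whole segment lay in the first part of the heavy locus. From 106175529 to 106180103 (4575 bp) it held 18 summits with folds of 3.66 to 37.9, of which 7 had 50 reads or more. Its highest summit, at 106177646, had 113 reads and a −log10 p of 153 (152.8). The region from 106204117 to 106206327 (2211 bp) reached 33.2 (99 reads), with all 5 summits at 20 reads or more. The region from 106055256 to 106059101 (3846 bp) began 5.26 kb inside the locus and reached 27.9 (83 reads). Wide regions were not always strong: the one from 106346181 to 106350303 had the most summits of the locus, 20 in 4123 bp, and none above a fold of 8.98. In all, 7 regions of the heavy locus had a summit of 50 reads or more, with a median width of 3163 bp, and each was at least 2211 bp wide. The 9 such regions of the span had a median width of 1672 bp and ran from 605 to 6236 bp. Of the 10 highest folds of the segment 5 lay in the heavy locus and 5 in the span.

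The span between the loci held 72.3% of the segment's summits in 61.4% of its length, and from 102 Mb on it was denser towards the heavy locus. Its start is not part of this rise: windows of 100 kb from 101600001 to 102000000 had 42, 23, 15 and 112 summits. From 102 to 103 Mb 408 summits were listed, from 103 to 104 Mb 650, from 104 to 105 Mb 1182 and from 105 to 106 Mb 2459. This last 1 Mb held 35.4% of all summits of the segment and had 46.3% of its length in listed regions. Its median fold was 6.32, against 4.99 from 102 to 103 Mb, and 37.9% of its summits had 20 reads or more, against 21.6%. The density then stayed high across the bound of the heavy locus, with 329 summits from 105900001 to 106000000, 220 in the next window of 100 kb and 189 in the one after.

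**Figure D4:**
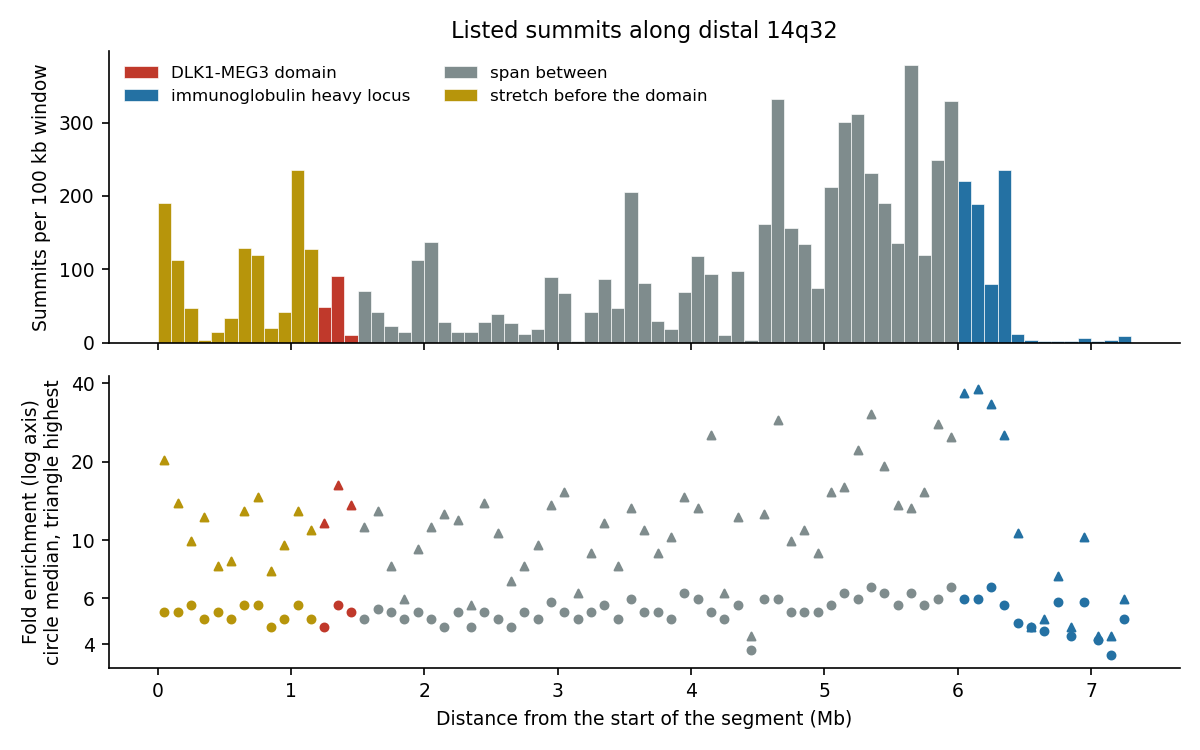
Summits per window of 100 kb (top) and the median (circles) and highest (triangles) fold enrichment of each window (bottom, log axis) against the distance from the start of the segment in Mb, coloured by the stretch that holds the window's midpoint. Counts are highest from 105 to 106 Mb, 5 to 6 Mb from the start, and windows in the second part of the heavy locus have 12 summits or fewer.

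Of the 73 windows of 100 kb with a summit 27 had 100 summits or more (37.0%), against 5.61% of all such windows of the list. By stretch these were 0 of 3 windows in the domain, 3 of 13 in the heavy locus, 18 of 45 in the span and 6 of 12 before the domain. The densest was 105600001 to 105700000, with 379 summits in 75 regions and 68.9 kb of its 100 kb covered. It was followed by 104600001 to 104700000 (332 summits), 105900001 to 106000000 (329), 105200001 to 105300000 (312) and 105100001 to 105200000 (301). The densest 10% of windows, 7 in number, held 30.7% of the summits of the segment (95% Wilson interval 29.7 to 31.8%). These windows were picked by their own counts, so this is the largest share of any 7 windows. The interval does not cover that choice. Sparse windows also occurred inside the span: the one from 103100001 to 103200000 had 2 summits, as had those from 106600001, 106700001, 106800001 and 107000001 in the heavy locus. The window at the end of the chromosome, from 107300001 to 107349540, had none.

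Long stretches without a listed region interrupted all parts of the segment. After the longest, in the heavy locus (107.6 kb), came 100438422 to 100545206 before the domain (106.8 kb), 102251502 to 102348886 in the span (97.4 kb), the empty middle of the domain (96.6 kb) and 103060002 to 103150125 in the span (90.1 kb). The span had 36 distances of 20 kb or more between neighbouring regions in 4.51 Mb, the heavy locus 17 in 1.24 Mb and the domain 1 in 0.35 Mb. Relative to length they were thus most frequent in the heavy locus, where 16 of the 17 lay in the second part. Elsewhere regions were close: 40.5% of neighbours lay under 500 bp apart in the domain, 59.0% in the heavy locus and 60.8% in the span. In the heavy locus this share was 68.5% in the first part and 3.03% in the second. Unknown sequence and sequence where reads cannot be placed were not measured here, and a stretch without a listed region is not shown to be closed, since the list begins at 10 reads and is named as differential to the control.

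All 9 regions of the span with a summit of 50 reads or more began at 104181383 or beyond. The region from 106049040 to 106049644 (605 bp) ended 0.356 kb before the bound of the heavy locus, and its 2 summits had 27 and 109 reads, the higher with a fold of 36.6. The region from 105325071 to 105328970 (3900 bp) had 8 summits of 30 to 91 reads, 7 of them at 50 or more, with a highest fold of 30.6. The region from 104681184 to 104682514 (1331 bp) reached 28.9 (86 reads). The widest region of the segment, from 105408153 to 105419741 (11589 bp), was even in height, with 36 summits of 18 to 49 reads, 35 of them at 20 or more. The region with the most summits, from 105249261 to 105256056 (6796 bp), had 43 summits of 11 to 37 reads.

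Across windows of 100 kb the number of summits and their strength went together. Over the 62 windows with 10 summits or more Spearman's rho between the number of summits and the median fold was 0.701, and over the 42 such windows that lie wholly in the span it was 0.759. This is a description across windows, which share the same libraries, depth and background and are not replicates. The highest median fold of a window was 6.65 in both the heavy locus and the span. In the heavy locus this window had 80 summits, from 106200001 to 106300000. In the span, windows with 231 and 329 summits, from 105300001 and from 105900001, had the same median. The 3 windows of the domain lay between 4.65 and 5.65, the same range as in the 11 windows of the stretch before it.

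**Figure D5:**
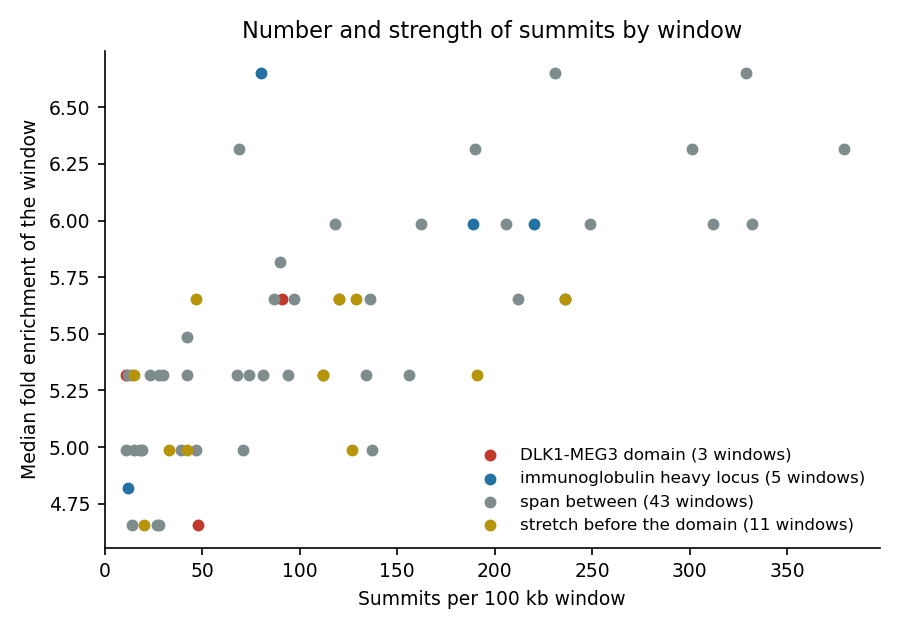
Median fold enrichment of a window of 100 kb (vertical axis) against its number of summits (horizontal axis) for the 62 windows with 10 summits or more, coloured by stretch. Windows with more summits tend to have the higher medians (rho 0.701), and the windows of the DLK1-MEG3 domain lie at 91 summits or fewer.

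The promoters of the protein-coding genes that follow MEG9 up to the heavy locus were described by their base composition, with no test. Of these 58 genes 53 had a promoter in the RefSeq table, 250 bases before to 50 after the start. Their median GC content was 72.7%, against 62.7% over 15843 promoters of protein-coding genes of the table, and 43 of 53 (81.1%) had an observed to expected CpG ratio of 0.6 or more, against 65.8%. The promoter of AKT1 had a GC content of 83.3%, that of JAG2 79.7%, that of DIO3 73.0% and that of HSP90AA1 66.3%, below the median. From DLK1 to MEG9 only 5 of 107 genes had an entry, too few for such a comparison, and for the segments of the heavy locus there was none. Of the 5 entries in the domain only MEG3 had a CpG ratio of 0.6 or more, at 0.728 with a GC content of 59.0%. RTL1 had a GC content of 55.0% and a ratio of 0.295, and MEG9 had 55.3% and 0.174. These promoters were not placed on the list, whose positions are in another build, so whether a listed region covers any of them was not analysed here.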

How the data were processed

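ATAC-seq libraries were made from 75000 cells per sample by Tn5 tagging and PCR, per the labels' protocols, for 2 knock-down and 2 control samples. The submitters' processing notes name Bowtie 1.1.2, MACS2 and the build hg19. The list's name calls it differential to the control. How peaks were called, what part the control had in this, how duplicates were treated and whether samples were pooled is not given in the sources used here. In the segment the listed folds and p-values hold no term for control reads at a position. Each summit in the list deposited by the authors has a fold enrichment (a ratio to background), −log10 p, −log10 q and a score, which equals 10 times −log10 p without decimals in all 6954 summits of the segment, within 1 unit. No score was used.

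A region is a distinct start and end and belongs to the stretch of its highest summit. Positions are hg19, counted from 1. The pileup is the whole number of reads whose Poisson tail matches the listed p with fold (pileup + 1) / (background + 1). The solver recovered 100% of 300 simulated lines. In 6954 of 6954 summits this equalled the pileup from the fold and the common background. Medians and shares carry no test, since the list does not separate the samples. Named items were, per stretch, the 3 regions of highest fold, the 2 widest and the 2 with most summits, and over the segment the 5 windows of 100 kb with most and with fewest summits and the 5 longest empty stretches. The members, stretches and gene lists were chosen with earlier results of these data known. Gene lists served only for names and order. Python 3.11.15, numpy 2.4.6, scipy 1.17.1, pandas 2.3.3 and matplotlib 3.10.9 were used.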

Additional observations from a re-analysis of the deposited data

How the results depend on the processing

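Of 104 values under alternatives, 63 kept within their interval (95%, counting error only) or, for the number of summits, within 1.5 times. Some of the 63 could not change. With each region counted once, and with the region midpoint deciding, the covered length came from the same regions and was the same by construction. The first 350 kb of the heavy locus and the domain without its empty stretch are settings added once the data had been seen. The summit density of the heavy locus over the span (0.489) reversed to 1.63 in the first 350 kb, where the covered length was 35.2%, and was 0.427 with bounds narrowed by 50 kb. That of the domain over the span (0.492) was 0.934 with each region counted once, 0.945 with regions within 100 bp merged, 0.353 in the 50% of summits with the highest fold, 0.263 at 20 reads or more, 0.599 with bounds widened by 50 kb and 0.680 without the empty stretch. The number of summits (6954) became 2715 with each region counted once, 2638 with regions merged, 3967 in the upper 50% by fold and 2038 at 20 reads or more, by construction. The covered length in the domain, the heavy locus and the span was 6.54%, 9.17% and 17.6% in the upper 50% by fold, and 3.92%, 7.23% and 14.2% at 20 reads or more. In the domain it was 13.4% with bounds widened and 14.8% without the empty stretch. The median fold in the domain, the heavy locus and the span was 6.32, 6.98 and 6.98 in the upper 50% by fold, and 8.31, 8.64 and 7.98 at 20 reads or more. In the heavy locus it was 6.32 with each region counted once and with regions merged. The share of summits past a minimum in the domain, the heavy locus and the span was 52.6%, 68.7% and 66.8% at 15 reads, and 3.65%, 10.4% and 5.09% at 30 reads. With each region counted once the share at 20 reads was 37.0% in the heavy locus and 33.0% in the span, and with regions merged 37.5% and 33.5%. The densest 10% of windows held 35.3% of summits at 50 kb and 43.1% at 10 kb. Beyond what construction fixes, the cause was not tested. The domain had the lowest share of strong summits of the 3 at each minimum, though no interval was computed at 15 or 30 reads. Its density stayed below the span in each alternative, but only slightly when regions were counted (0.934 and 0.945). Among summits of 20 reads or more the order of the median fold turned, with 8.31 in the domain and 7.98 in the span. The list stops at 10 reads and is named as differential to the control, which limits what a sparse stretch shows. No paired analysis was possible because the samples are not separated in the list, and leaving out replicates was not run for the same reason.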
